A study of Mus musculus with 6 samples.

Results

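The Rn45s stretch is a copy of ribosomal DNA assembled on mouse chromosome 17, and its CpG methylation was described in male germ cells with and without Tex15. It was taken as all cytosines of the deposited CpG table in the 6 kb of chromosome 17 that end at 39986000 (mm9), which gave 1181 of 10025464 cytosines. They belong to 591 CpGs, of which 590 were read on both strands, and lie between 39980004 and 39985768. The stretch was chosen from these same data, because its methylation was lower in Tex15KO than in the control pups. Its levels in Tex15KO against the controls are therefore given as a description, and the calls of a fit over the whole table, printed once for its tiles, support nothing about it.

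Ribosomal DNA codes for the long precursor from which RNA polymerase I makes the RNAs of the ribosome. Mammals carry it as many near-identical repeats in tandem arrays, and methylated repeats are known to be silent while unmethylated ones can be transcribed. Most arrays are missing from the mouse assembly, so reads from many repeats pile up on the few copies that were assembled. A level measured on such a copy is an average over repeats and over cells, and a share of fully methylated repeats cannot be told apart from partial methylation of all of them. The RefSeq gene table used here (GRCm38.p6, another build than the files) does not list Rn45s by that symbol. On chromosome 17 it holds Rn18s-rs5, a pseudogene related to the RNA of the small ribosomal subunit, and the non-coding RNA gene AY036118. Their coordinates were not carried over to mm9, so parts of the transcript were not placed along the stretch and no sequence is shown.

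Male germ cells were sorted by Oct4-GFP fluorescence, a marker of germ cells, from individual mouse pups at postnatal day 2.5, and their DNA was read by whole-genome bisulfite sequencing, in which an unmethylated cytosine is read as T and a methylated one as C. All pups had a mixed strain background and heterozygous parents, and all were sorted on the same marker. The genotypes were Tex15WT with both copies of Tex15 intact (Tex15+/+, pups 8 and 9), Tex15HT (Tex15+/-, pups 7 and 18) and Tex15KO (Tex15-/-, pups 3 and 16), with 2 pups each. The protein made from Tex15 is found in germ cells and is known as a partner of PIWI proteins, which silence transposable elements. DNA methylation gives no marker expression, so the identity of the sorted cells was not checked here. The depth was 27495658 to 52935635 calls per sample, a call being 1 read's C or T at 1 cytosine. The coverage of Tex15KO 3 differed from that of the other libraries: 74.4% of all cytosines had 0 calls there, against 1.71 to 10.2% in the other 5. Values are therefore also given for Tex15KO 16 alone.

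Reads were stacked on the stretch and stopped at its end. The mean was 134 calls per cytosine in Tex15KO 3 and 269 in Tex15KO 16, the shallowest and the deepest sample, and 148 to 210 in the 4 controls. In the 20 kb after the stretch, 28 cytosines were covered, at a mean of 2.04 to 4.04 calls. Before it, the deep stack began within the preceding 1 kb, whose 15 cytosines had 53.9 to 126 calls on average, and the other 28 cytosines of the preceding 20 kb had 2.25 to 3.14. The start of the 6 kb thus cut into the stack. The nearest cytosine outside it, at 39979998, had 54 calls in Tex15KO 3 and 129 to 202 in the others, and the nearest inside, at 39980004, had 144 and 155 to 293. At the nearest cytosine outside, Tex15WT had 9.27 and 10.9%, Tex15HT 1.44 and 8.15%, and Tex15KO 1.85 and 4.95%. At the nearest one inside, Tex15WT had 7.10 and 6.12%, Tex15HT 6.19 and 10.7%, and Tex15KO 15.97 and 4.10%.

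**Figure D1:**
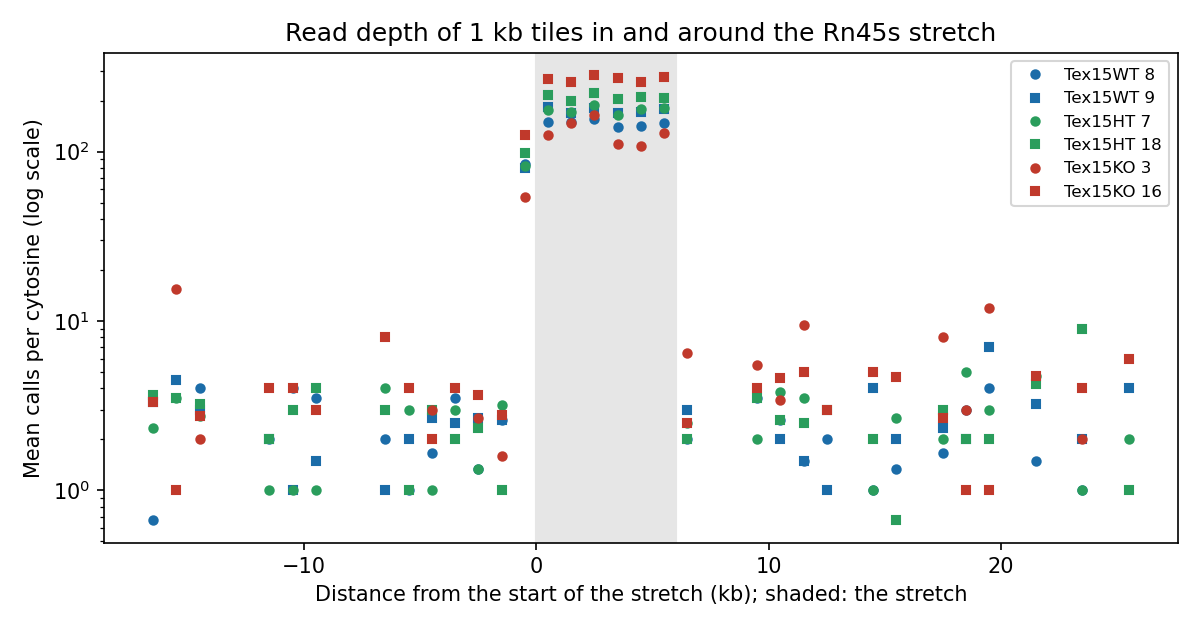
Mean calls per cytosine (log axis) in 1 kb tiles from 20 kb before to 20 kb after the Rn45s stretch (shaded), by distance from its start, with 1 point per pup (values of 0 cannot be drawn). Inside the stretch the pups lie near or above 100 calls per cytosine, and beyond it mostly below 10.

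The share of calls taken by ribosomal DNA overlapped between the genotypes. The stretch took 0.529% (pup 8) and 0.611% (pup 9) of all calls in the Tex15WT samples. It took 0.612% (pup 7) and 0.606% (pup 18) in Tex15HT, and 0.575% (pup 3) and 0.6002% (pup 16) in Tex15KO. Both Tex15KO samples lay within the range of the controls, but only through Tex15WT 8, since the other controls lay above both. The share was 0.588% ± 0.0176 in Tex15KO (SD, n = 2) and 0.589% ± 0.0404 in the 4 controls, a ratio of 0.997 (exact permutation test over samples, two-sided, p 1, where 2 against 4 samples cannot go below 0.0667). Between Tex15HT and Tex15WT the ratio was 1.07 (same exact test, p 0.667, smallest possible 0.333). Measured instead as the median coverage of the stretch over that of all covered cytosines, the fold was 16.6 in Tex15KO 3 and 72.8 in Tex15KO 16 against 75.3 to 95 in the controls. Both Tex15KO samples were below the controls by this measure, at a ratio of 0.521 (same exact test of 2 against 4, p 0.0667, the smallest it can give). For Tex15KO 16 alone the ratio was 0.849. In Tex15KO 3 the few covered cytosines had a median of 8 calls, against 2 to 4 in the other samples.

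Ribosomal DNA was mostly unmethylated in every pup, and least methylated in the 2 Tex15KO pups. The methylation level, the C calls over all calls of the stretch, was 7.27% in Tex15WT 8 and 9.34% in Tex15WT 9. It was 6.19% in Tex15HT 7 and 9.24% in Tex15HT 18. In Tex15KO it was 4.87% in pup 3 and 3.17% in pup 16. The groups of controls overlapped each other, and both Tex15KO values lay below all 4 controls. These levels rest on 158208 to 317733 calls, and their 95% Wilson intervals are at most 0.251 points wide. The libraries had no molecular identifiers and several reads can stem from 1 molecule, so the intervals cover counting error only. The pups of 1 genotype differed by 1.70 to 3.04 points.

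From highest to lowest, the mean and SD of the genotypes (n = 2 each) were 8.31% ± 1.46 for Tex15WT, 7.71% ± 2.15 for Tex15HT and 4.02% ± 1.20 for Tex15KO. Tex15WT and Tex15HT differed by less than the spread within either. Tex15KO lay -4.29 points from Tex15WT, -3.69 points from Tex15HT and -3.99 points from the 4 controls, with a pooled SD within genotypes of 1.65 points. Tex15KO 16 alone lay -5.14 points from Tex15WT and Tex15KO 3 alone -3.44 points. The value nearest to Tex15KO was that of Tex15HT 7, 1.32 points above Tex15KO 3.

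The comparison of Tex15HT with Tex15WT did not enter the choice of the stretch, although values of the control pups did. The difference was -0.593 points (exact permutation test, two-sided, p 0.667, smallest possible 0.333). Its sign depended on the pup: it was -2.11 points without Tex15HT 18 and 0.927 points without Tex15HT 7. In edgeR's quasi-likelihood test of 1 kb tiles, fitted over the whole table and called at a Benjamini-Hochberg adjusted p under 0.05, 0 of the 6 tiles of the stretch were called for Tex15HT against Tex15WT. In the table as a whole this comparison called 0.00121% of tiles lower and 0% higher. Among the 6, 1 had an unadjusted edgeR p under 0.05, the first tile (0.0130). By limma 0 of the 6 were called, and 0 at an unadjusted p under 0.05. The limma fit did not weight tiles by their depth and drew its spread in part from all tiles. Its lack of calls is therefore no evidence of equal levels in the stretch.

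Levels near zero can come from incomplete conversion by bisulfite, so sequence that is normally free of methylation was measured the same way. The 510 mitochondrial cytosines lay between 0.656% (Tex15HT 18) and 0.826% (Tex15HT 7) in the controls, at 0.753% in Tex15KO 16 and at 1.82% in Tex15KO 3. The median of 1101 CpG-rich tiles (1 kb with at least 50 CpGs and 100 calls in each sample) lay between 0.552% in Tex15KO 3 and 0.704% in Tex15KO 16. Taken as a whole, the stretch was thus above this floor in every pup. It lay at 7.50 to 14.1 times the mitochondrial level in the controls, 2.67 times in Tex15KO 3 and 4.21 times in Tex15KO 16. In Tex15KO 3 the floor itself was uneven, with mitochondrial 1 kb tiles between 0.733 and 3.40%. In that pup the 500 bp windows of the stretch from 1.5, 3 and 3.5 kb, at 2.18, 2.11 and 2.61%, lay inside this range. With the mitochondrial level of each pup subtracted, 5.37 to 8.62% remained in the controls, 3.05% in Tex15KO 3 and 2.42% in Tex15KO 16.

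**Figure D2:**
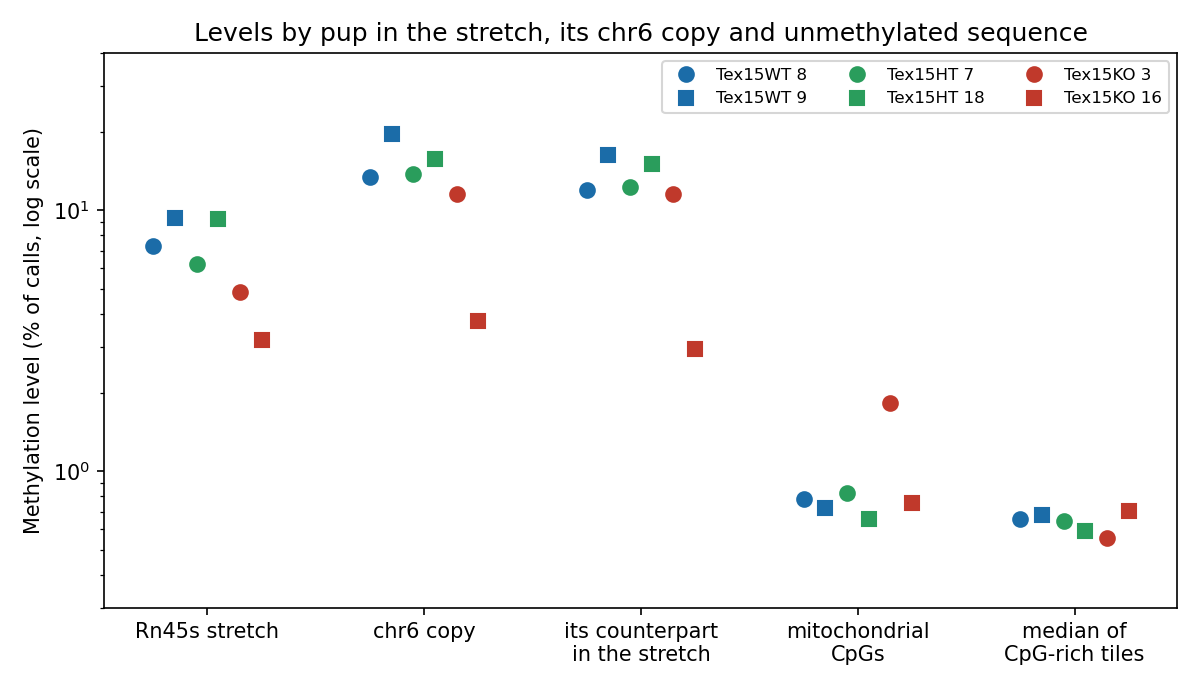
Methylation level (percent of calls, log axis) of each pup in the Rn45s stretch, in a copy of part of it on chromosome 6, in the counterpart of that copy within the stretch, in mitochondrial CpGs and as the median of CpG-rich tiles. Tex15KO 16 is the lowest pup in the first 3 sequences, at 3.17, 3.76 and 2.95%, and lies among the controls in the mitochondrial CpGs.

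Methylation was not even along the stretch. In 500 bp windows, each control was highest in the window from 4.5 to 5 kb after the start, where Tex15WT had 12.8 and 15.9% (pups 8 and 9) and Tex15HT 13.4 and 15.3% (pups 7 and 18). The windows from 3.5 to 4 kb and from 4 to 4.5 kb were high too, at 10.5% ± 1.31 and 13.1% ± 2.22 over the 4 controls. The lowest level was that of the window from 2.5 to 3 kb, at 5.77% ± 1.14 (SD, n = 4). Over the 12 windows the 4 controls followed one another closely, with Pearson correlations of 0.932 to 0.990 for their 6 pairs, given as a description since neighbouring windows share reads and the same repeats.

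Tex15KO 16 rose little over this hill from 3.5 to 5 kb, although its highest window, at 4.01%, also began at 3.5 kb. Its 12 windows ranged from 2.42 to 4.01%, a ratio of 1.66 between the highest and the lowest, against 2.32 to 3.23 in the controls. Over the hill, a span picked after the profile was seen, it lay at 3.57%, and at 3.07% in the rest. Each control was higher inside that span than outside: 11.4% against 6.25% (Tex15WT 8), 14.4% against 8.07% (Tex15WT 9), 11.4% against 4.87% (Tex15HT 7) and 13.8% against 8.07% (Tex15HT 18). The correlation of Tex15KO 16 with each control over the 12 windows was 0.251 to 0.323.

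The profile of Tex15KO 3 was ragged. It reached 11.7% from 4 to 4.5 kb, within the controls' range of 11.2 to 15.8%, and 7.29% in the first window, where the controls had 4.80 to 9.22%. From 3 to 3.5 kb it was at 2.11%, below Tex15KO 16 at 3.23%, and from 3.5 to 4 kb at 2.61%, where the lowest control had 8.96%. Tex15KO 3 lay below all 4 controls in 6 of the 12 windows and above all of them in 0. Tex15KO 16 lay below all 4 in 12 of 12, and both samples did in 6 of 12. Among the 500 bp windows outside the stretch with at least 1000 calls in each sample, Tex15KO 3 was below all controls in 10.7%, Tex15KO 16 in 13% and both in 7.63%. The windows outside were not matched to the stretch by level. Since the choice of the stretch used this contrast, nothing is read from these counts.

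**Figure D3:**
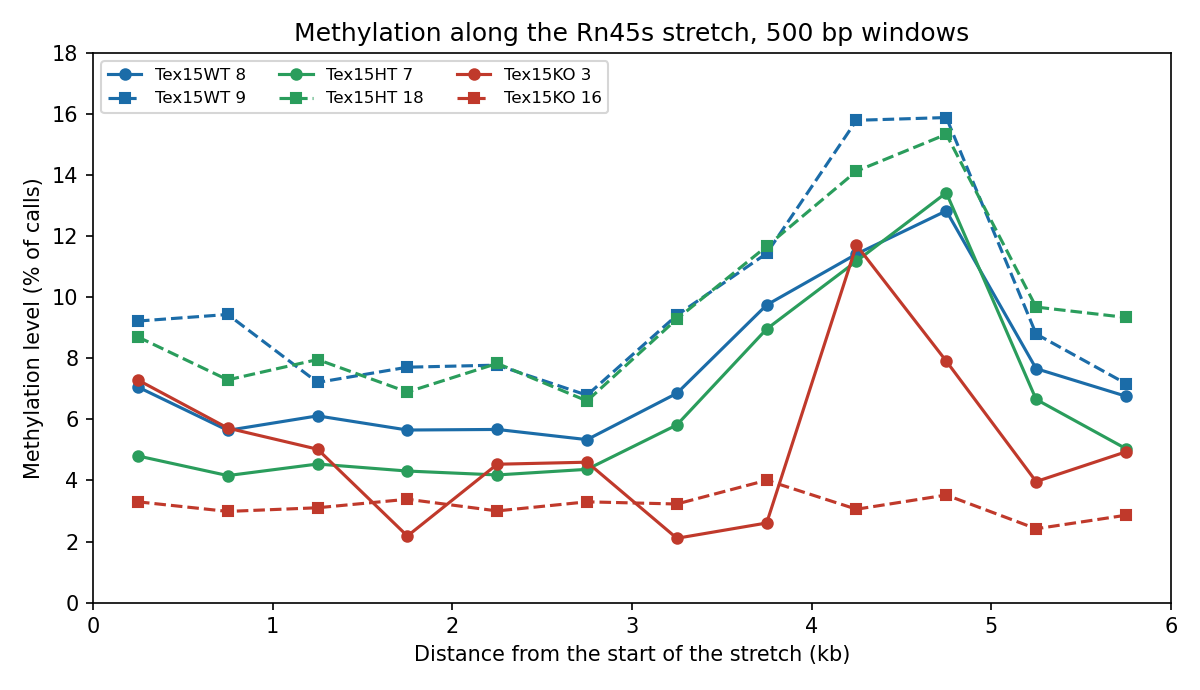
Methylation level (percent of calls) in 12 windows of 500 bp by distance from the start of the Rn45s stretch, with 1 line per pup coloured by genotype. The 4 controls rise between 3.5 and 5 kb, Tex15KO 16 stays between 2.42 and 4.01%, and Tex15KO 3 moves between 2.11 and 11.7%.

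Tex15KO 3 was higher in the span of the hill than outside it, at 7.38 against 4.37%, a ratio of 1.69 where the controls had 1.71 to 2.35 and Tex15KO 16 1.16. The mean of the 2 Tex15KO samples was lower than that of the controls by the most from 4.5 to 5 kb, at -8.65 points, and from 3.5 to 4 kb, at -7.15 points. It differed least from 2.5 to 3 kb, at -1.83 points, and from 0 to 0.5 kb, at -2.15 points, where Tex15KO 3 was -0.156 points from the controls. In Tex15KO 16 alone the difference ran from -2.47 points (2.5 to 3 kb) to -10.8 points (4.5 to 5 kb), and its 3 largest were the windows of the hill. In Tex15KO 3 it was -7.85, -6.46 and -1.42 points in the windows from 3.5, 4.5 and 4 kb, the last smaller than the -5.74 points from 3 to 3.5 kb outside the hill. Tex15HT 7 was the lowest control in 11 of the 12 windows, and Tex15HT was below Tex15WT in 10 of 12, at the most by -1.81 points.

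The number of CpGs did not order the windows. The control level had a correlation of -0.540 with the number of cytosines per window (66 to 136) and of 0.0435 with the calls per cytosine, over 12 windows and without a test. Over the 9 windows outside the hill the first of these was -0.441. The 3 windows of the hill held 78, 90 and 72 cytosines, while the window with the fewest, 66 from 5.5 to 6 kb, was at 7.08% and the first, with 78, at 7.45%.

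Of the cytosines, 765 were read 100 times or more in every pup. Their median level was 6.48 and 8.08% for Tex15WT (pups 8 and 9), 5.02 and 8.47% for Tex15HT (pups 7 and 18), and 2.65 and 3.03% for Tex15KO (pups 3 and 16). Most cytosines carried some methylation in the controls, where the 5th percentile lay between 1.95 and 4.62%. In Tex15KO 16, 0 of the 765 were over 10%, and its highest was 8.36%. In the controls 80 (Tex15HT 7) to 243 (Tex15HT 18) were over 10%. Tex15KO 3 had 141 over 10% and also 179 without a methylated call, of which the controls had 0 or 1 and Tex15KO 16 had 0.

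Both Tex15KO samples lay below all 4 controls at 366 of the 765 cytosines (47.8%) and above all at 0. Outside the stretch, both lay below all 4 controls at 6.96% of the 1222 cytosines with the same minimum of calls. Those cytosines were not matched to the stretch by level. Among the 9 deeply read 1 kb tiles in its level range, a subset described below and chosen after the data were seen, both did in 55.6%. The choice of the stretch used this contrast. Taken alone, Tex15KO 16 was below all controls at 76.7% of the 765 and above all at 0.131%, against 13.4% below outside the stretch. Tex15KO 3 was below at 61.2% (20.5% outside) and above at 16.9%. The shares above all controls were not counted outside the stretch, so nothing is read from those inside it.

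**Figure D4:**
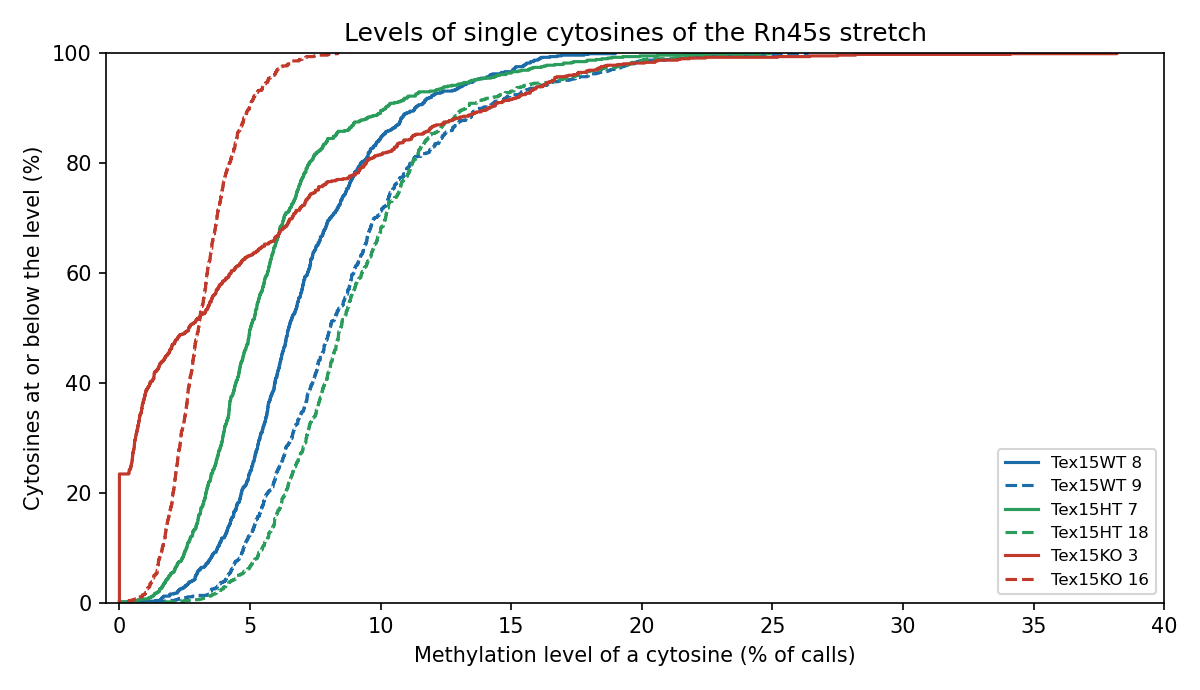
Cumulative distribution of the methylation level of single cytosines (percent of calls) over the 765 cytosines with at least 100 calls in each sample, with 1 line per pup. Tex15KO 16 ends at 8.36%, and Tex15KO 3 starts with 23.4% of cytosines at 0 and runs on to 38.2%.

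Single positions show the same contrast between the knockout pups. The cytosine with the highest mean in the controls was that of the minus strand at 39984236, where Tex15WT had 15.7 and 24.4%, Tex15HT 24.6 and 22.0%, Tex15KO 3 18.3% and Tex15KO 16 5.45%. Next came 39984724 and 39984715, also on the minus strand, at 20.7 and 20.2% in the controls and 4.86 and 5.70% in Tex15KO 16. All 3 lie in the hill. The lowest were 39981887 (minus strand, 2.42% in the controls), 39980057 (plus strand, 2.91%) and 39981616 (minus strand, 3.40%), all in the first 2 kb.

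The largest differences from the controls were at 3 cytosines of the plus strand within 36 bp, 39984432, 39984443 and 39984467. At 39984443 Tex15WT had 15.5 and 18.9%, Tex15HT 16.2 and 24.9%, Tex15KO 3 0% of 169 calls and Tex15KO 16 2.72% of 331 calls. The count of 0 allows a level of up to 1.78% by counting error alone (3 calls of the total), a limit that holds for independent reads and is too low where reads share a molecule. At the other end, 3 cytosines had the highest Tex15KO mean relative to the controls, through Tex15KO 3 alone. At 39982207 (plus strand) Tex15KO 3 had 34.1%, Tex15KO 16 1.49% and the controls 3.42 to 5.17%, at 39982299 (plus strand) Tex15KO 3 had 28.2% and Tex15KO 16 4.22%, and at 39984097 (minus strand) they had 38.2 and 3.17%.

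The rule for naming asked for 1000 calls in each sample, which 0 cytosines of the stretch had, so 100 calls were used, a minimum chosen after the data were seen.

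Tex15KO 3 differed from the other libraries in how its calls were arranged. Within the 500 bp windows, the chi-square per degree of freedom of the cytosines around their window's level, whose value is about 1 where reads are independent and cytosines alike, was 9.60 in Tex15KO 3, 1.62 in Tex15KO 16 and 1.36 to 2.16 in the controls. The 2 cytosines of a CpG, read from different strands, correlated at 0.593 to 0.686 in the controls over 294 CpGs, at 0.284 in Tex15KO 16 and at 0.0702 in Tex15KO 3. They differed by 5.03 points on average in Tex15KO 3, against 2.05 to 2.41 in the controls and 1.28 in Tex15KO 16. The longest run of successive cytosines of 1 strand with at least 30 calls and 0 methylated held 11 cytosines over 147 bp in Tex15KO 3, 5 over 49 bp in Tex15KO 16, and at most 2 in the controls. The part of this in the level of Tex15KO 3 was not tested.

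The levels of neighbouring cytosines of the same strand were correlated over longer distances in the controls than in the knockouts. At 1 to 10 bp the correlation was 0.67 to 0.74 in the controls, 0.52 in Tex15KO 3 and 0.34 in Tex15KO 16. At 151 to 300 bp it was 0.25 to 0.45, 0.00 and -0.07. These are descriptions over pairs of cytosines that share reads. Window levels were not subtracted, so the uneven profile of a pup enters its correlations. A low correlation does not mean unlike levels in Tex15KO 16, whose cytosines spanned a narrow range (quartiles 2.20 and 3.93%). Counting error weighs more in so narrow a range. The SD over the 12 windows was 2.46 to 3.14 points in the controls, 2.73 in Tex15KO 3 and 0.387 in Tex15KO 16.

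Strand made little difference to the level of a pup outside Tex15KO 3. Plus and minus strand lay at 7.47 and 7.12% (Tex15WT 8), 9.38 and 9.31% (Tex15WT 9), 6.43 and 6.005% (Tex15HT 7), 9.12 and 9.33% (Tex15HT 18) and 3.13 and 3.21% (Tex15KO 16). In Tex15KO 3 they lay at 4.16 and 5.51%.

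A further copy of part of the stretch was found on chromosome 6 by its CpG spacing. Of the 35 CpGs in the tile at 6:3151001 to 3152000, 32 (91.4%) fell on CpGs of the stretch at 1 shift, while the next best of the 14 deeply read tiles with 30 or more CpGs reached 43.3%. The 32 CpGs lie at 6:3151033 to 3151654 and answer to 17:39983889 to 39984510, inside the hill, where the stretch has 52 CpGs. Reads were placed on the copies by the authors' alignment, and reads of the same repeats may be split between both, so the copies are not independent samples of ribosomal DNA.

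The levels of a pup were close in both copies. For Tex15WT 8 they were 13.4% on chromosome 6 and 11.98% at the same CpGs of the stretch. The same pairs were 19.5 and 16.2% for Tex15WT 9, 13.8 and 12.2% for Tex15HT 7, and 15.7 and 14.96% for Tex15HT 18. Tex15KO 3 had 11.5% at both, below the lowest control, and Tex15KO 16 had 3.76 and 2.95%. CpG by CpG the correlations between the copies were low, at -0.0668 to 0.246 over the 32 CpGs. The chromosome 6 copy had only 2169 (Tex15KO 3) to 5260 (Tex15KO 16) calls over these CpGs. The part of counting error in the low correlations was not tested.

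The tiles whose pattern over the 6 pups was most like that of the stretch were low tiles as well. They were sought among the 94 tiles of 1 kb outside the stretch with at least 1000 calls in each sample, by Pearson correlation over the 6 samples, used as a measure of likeness without a test. The 5 highest were 9:123371001 (0.967), 13:44965001 (0.964), 3:5860001 (0.941), 5:147072001 (0.921) and the tile of the chromosome 6 copy (0.921), each named by its start, and the median of all 94 was -0.0571. At 13:44965001 Tex15WT had 9.39 and 16.9%, Tex15HT 8.02 and 13.1%, Tex15KO 3 5.36% and Tex15KO 16 3.05%. At 3:5860001 the levels were 8.17 and 13.2%, 6.06 and 10.9%, 1.99% and 3.17%, in the same order. As in the stretch, Tex15WT 9 and Tex15HT 18 were the 2 highest pups in all 5, an order that the choice by correlation favours. The CpG spacing of the other 4 matched the stretch at 32.6 to 47.1% of CpGs, where the median over the 94 tiles was 46.7%, and no gene name is given to them here.

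The tiles outside the stretch with at least 1000 calls in each sample were compared with it. Their depth differed widely from that of the stretch. In Tex15KO 3, the tile at 13:44965001 had 1026 calls, that at 2:98507001 had 2506965, and the last 1 kb of the stretch 23765. The 2 Tex15KO pups were under every control in 4 of the 6 tiles of the stretch and in 8 of the 94 others (8.51%). Among these were the 5 just named, whose choice by correlation with the stretch favours this order. The median difference between Tex15KO and the controls over the 94 was 0.673 points, at a median control level of 32.7%, and 12 of them were mitochondrial. Among the 9 whose control level lay in the range of the 6 tiles of the stretch (6.03 to 13.9%), a subset chosen after the data were seen, the Tex15KO mean was lower in 8 and both pups were under every control in 5 (55.6%). Of these 9, 4 were among the 5 tiles named for their likeness to the stretch. The 2 tiles of the stretch for which this did not hold were the first and the one at 39982001, where Tex15KO 3 had 6.55 and 4.57%, above Tex15HT 7 at 4.53 and 4.29%.

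**Figure D5:**
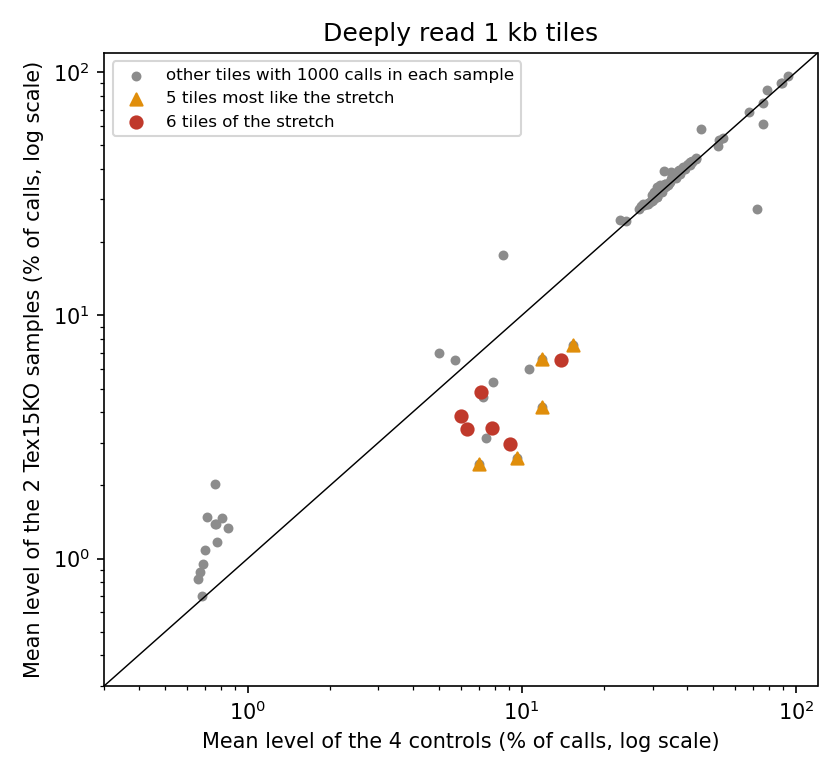
Mean level of the 2 Tex15KO samples against the mean of the 4 controls (percent of calls, log axes) for 1 kb tiles with at least 1000 calls in each sample, with the line of equal levels. The 6 tiles of the Rn45s stretch and the 5 tiles most like it lie under the line at control levels below 20%, and most of the others lie along it.

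The stretch was chosen for a low level in Tex15KO, which fixes the direction of the calls below, so they are no test of it. In the fit over all tiles, edgeR called 6 of the 6 tiles of the stretch lower in Tex15KO than in Tex15WT, where it called 0.00939% of all tiles lower, and 5 of 6 lower than in Tex15HT, where it called 0.00485%. Limma called 0 of 6 in both comparisons (0.0963 and 0.0612% of all tiles lower), and 0 of 6 had an unadjusted p under 0.05. As its fit did not weight tiles by depth, the lack of calls says little of the stretch. The edgeR fit took the spread from tiles of like depth and none from a tile's own values, since its estimate of the prior degrees of freedom was infinite. Its p thus does not measure how far pups differed in ribosomal DNA. Without Tex15KO 3 edgeR called 2 of 6 against either group, and without Tex15KO 16 it called 3 of 6. Without Tex15HT 18, 3 of 6 were called against Tex15HT, and without Tex15WT 9, 4 of 6 against Tex15WT.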

How the data were processed

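The authors deposited 1 table of raw counts for 6 samples, which gives, per the file headers, the coverage and the calls read as C and as T at each CpG cytosine, with a line for each strand. The tools BSMAP, Bismark and methylKit and the build mm9 are named, without role or version, per the submitters' processing notes. Duplicate removal is not given in the sources used here, nor is the conversion of the lambda spike. C and T calls added up to the coverage everywhere (0 exceptions), and each genotype had at least 3 calls at every cytosine.

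A level is C calls over all calls, summed over the cytosines named. Tiles of 1 kb with at least 3 CpGs and 10 calls in each sample (330110 tiles) were tested with edgeR 4.0.16 (quasi-likelihood test of methylated against unmethylated counts, an intercept per sample, all 6 samples) and with limma 3.58.1 (log2 of methylated over unmethylated counts, pseudocount 1), in R 4.3.3, Benjamini-Hochberg adjusted over all tiles. Values per sample were compared by exact permutation in Python 3.11.15. The tests were tried on simulated data. For the tile tests these had no spread between pups, and far larger falls from higher levels than in the stretch. They therefore do not show how the tile tests act on the stretch. The stretch, the comparisons and the rules were chosen with earlier results of these data known. The naming rule took the 3 cytosines highest and the 3 lowest in the controls, the 3 with the largest and the 3 with the smallest value of the control mean minus the Tex15KO mean (the latter 3 below zero), and the 5 tiles most like the stretch. Each sample is a separate pup.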

Additional observations from a re-analysis of the deposited data

How the results depend on the processing

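The pup numbers define no pairs across genotypes, so no paired analysis was made, and litter was not taken into account. With 1 sample left out, the difference in level ran from -5.32 to -3.25 points for Tex15KO minus Tex15WT, from -5.21 to -2.17 for Tex15KO minus Tex15HT, from -4.84 to -3.14 for Tex15KO minus the 4 controls and from -2.11 to 0.927 for Tex15HT minus Tex15WT. In the last 3 kb alone the first 3 differences were -6.01, -5.82 and -5.91 points, and Tex15KO minus Tex15HT was -2.03 in the first 3 kb. Without the top 0.1% of coverage 2 cytosines were left, with differences of 0, -1.67, -0.833 and 1.67 points in the same order, which say nothing of the stretch. Cytosines with 1000 calls in each sample did not exist, so that alternative gave no value. The ratio of the share of calls ran from 0.964 to 1.02 (Tex15KO over controls) and from 0.997 to 1.15 (Tex15HT over Tex15WT) with 1 sample left out. By median coverage it was 0.521 and 0.970, and without other tiles over 0.1% of a sample's calls 0.937 and 1.10. The share of cytosines with both knockouts below all controls was 48.2 to 76.7% with 1 sample left out, the highest without Tex15KO 3, and that of windows 50 to 100%. Tiles of the stretch called by edgeR ran from 2 to 6 (against Tex15WT), 2 to 5 (against Tex15HT) and 0 to 0 (Tex15HT against Tex15WT), and limma called 0 in each. Over the whole table the edgeR counts of 32, 19 and 4 tiles ran from 10 to 15769, from 7 to 15764 and from 0 to 5 with 1 sample left out, both maxima without Tex15KO 16. They were 319, 207 and 0 in limma, 53 and 44 (the first 2 comparisons) with at least 30 calls, and 0, 0 and 0 without the top 0.1% of coverage. In that last setting, raw p-values under 0.05 were found at 4038 tiles for lower and 4655 for higher levels against Tex15WT, at 4069 and 2944 against Tex15HT, and at 538 and 1097 for Tex15HT against Tex15WT. At an unadjusted p under 0.05, limma called 1458 tiles lower and 3711 higher for Tex15HT against Tex15WT. The causes were not tested. Counting error in the level of the stretch (Wilson intervals up to 0.251 points wide) was smaller than the gap between pups of 1 genotype (1.70 to 3.04 points), while in the whole table the minimum of calls moved the counts of tiles.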
